A study of Mus musculus with 4 samples.

Results

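Pdgfra-positive fibroblasts of the lung, which carry the alpha receptor of platelet-derived growth factor (PDGF), were compared between embryonic day 18.5 (E18.5) and embryonic day 16.5 (E16.5). These are 2 of the 4 samples of a time course by RNA sequencing, with 1 sample per age, all from the lungs of wild-type C57BL6 mice. The embryos came from timed pregnancies, and the other samples, from postnatal day 7 (P7) and day 28 (P28), entered the scaling and are given side by side where they help. How many embryos were pooled, their litters and the gate of the sort are not given in the sources used here. Every gene of the table was eligible. Of 23444 gene symbols, 6036 reached 5 scaled FPKM (fragments counted per length of transcript and per mapped fragments of the sample, divided by a factor for each sample) in the higher of the E16.5 and E18.5 samples, and these 6036 genes are described.

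Between these ages the fetal mouse lung passes from branching and canal formation to the formation of saccules, the thin-walled airspaces used at birth. Pdgfra-positive fibroblasts lie under the epithelium and respond to the ligand PDGF-A, which the epithelium makes. Some of them become alveolar myofibroblasts, which contract and lay down elastin along the ridges that later divide the airspaces, and others become fibroblasts that store lipid and retinoids and support the alveolar epithelium. In the same days glucocorticoid hormone rises in the fetus and prepares the lung for breathing, acting in large measure through the mesenchyme.

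Values below are scaled FPKM, and a pair of values is that of E16.5 followed by that of E18.5. A difference is that of log2(scaled FPKM + 1), E18.5 minus E16.5, so that 1 is a 2-fold change. A gene is said to have risen or fallen where this difference was at least 1 in size. With 1 sample per age there is no spread between animals, so sizes are given without a test and describe these samples only. Within a sample, fewer cells of a type and less RNA per cell cannot be told apart. Levels of different genes are set side by side per length of transcript, as FPKM gives them.

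Of the 6036 genes, 564 rose (9.34% of those tested) and 734 fell (12.2%), while 4738 (78.5%) lay within 2-fold. The median difference was -0.02, and the 5th and 95th percentiles were -1.70 and 1.38. At 4-fold, 136 genes rose and 217 fell. The E18.5 column was low as a whole, with a scaling factor of 0.581 against 1.15 for E16.5. Read as deposited, without scaling, the median difference of all genes was -0.96, with 139 genes at least 2-fold higher and 2837 lower. All 564 genes that rose after scaling were also above their E16.5 value as deposited, 139 of them by at least 2-fold, and all 734 that fell after scaling were at least 2-fold lower as deposited. Each rise below is therefore a rise relative to the typical gene. At the edges of the rule, Ppif was just above the minimum and Prps2 just below it. Net1 and Wdr46 lay just inside the 2-fold limits, at 21.6 and 44.2 and at 9.58 and 4.29. Tmem204 and Rbmx2 lay just outside them, at 7.24 and 15.5 and at 5.56 and 2.28.

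**Figure D1:**
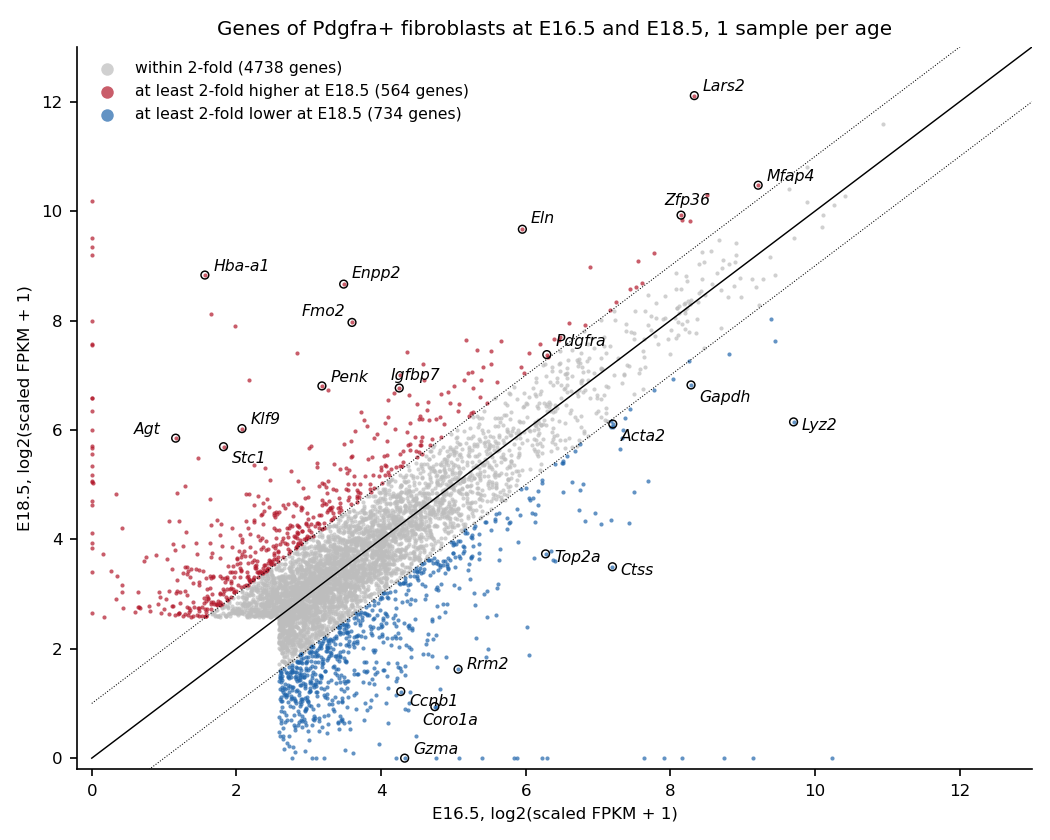
Scaled FPKM of 6036 genes at E16.5 (horizontal) and E18.5 (vertical), both as log2(scaled FPKM + 1), 1 sample per age. The solid line marks equal values and the dotted lines 2-fold. Eln, Enpp2, Fmo2 and Klf9 lie far above the upper dotted line, while Top2a, Rrm2, Ctss and Lyz2 lie far below the lower one.

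The labelled cell type was checked against its markers. Pdgfra (chromosome 5, 75152292 to 75198215, plus strand, GRCm38) rose, with 77.3 and 165 scaled FPKM, or 88.7 and 95.9 FPKM as deposited. All 16 general fibroblast markers reached 5 scaled FPKM. Of these, 4 rose, 1 fell and the median difference was 0.35 (1 higher and 3 lower as deposited). Col1a1, Col1a2 and Col3a1, the main fibrillar collagen chains, were level at 237 and 261, 294 and 319 and 332 and 322. The marker that fell was Thy1, a surface glycoprotein of many fibroblasts, at 11.2 and 0.0737. Leukocyte markers fell too (below), such as the T cell gene Cd3e at 14.7 and 0.197. Their part in the Thy1 values was not tested. The Y-linked genes Ddx3y, Eif2s3y and Kdm5d were found at both ages, from 5.24 to 7.36 at E16.5 and from 4.37 to 8.52 at E18.5, and Xist, the RNA of the silenced X chromosome, was near 0 in both (0.0103 and 0.0271). Among genes above 0 but below 0.1 FPKM in both samples, the commonest ratio of the E18.5 to the E16.5 value was about 1.39. If such genes hold equally few fragments in both, the E16.5 sample was sequenced more deeply by that factor. This condition was not tested. The 100 most abundant genes held 28.0% of the E16.5 total of FPKM and 32.6% of the E18.5 total.

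Genes of cell division fell together. Of 68 mitosis genes in the table, 60 reached 5 scaled FPKM, and 58 of the 60 fell while 0 rose. Their median difference was -2.13, against -0.02 over all genes. Cyclin B1 (Ccnb1), which drives entry into mitosis, had 18.3 and 1.33 and fell by 3.06 on the log2 scale. The spindle motors Kif11, at 25 and 2.63, and Kif15, at 17.5 and 1.65, fell by 2.84 and 2.80. Aurkb and Cdca8, both of the chromosomal passenger complex that corrects spindle attachment, had 18.1 and 2.14 and 18.3 and 2.02. Foxm1, the transcription factor that switches on many genes of mitosis, went from 11.6 to 0.862. The most abundant members were Ube2c, an enzyme of the anaphase-promoting complex, at 106 and 22.1, and the topoisomerase Top2a (chromosome 11, 98992943 to 99024189, minus strand), at 76.4 and 12.3. At P7 the same genes were again higher, with 41.3 for Top2a and 9.41 for Ccnb1, and at P28 they were low, with 5.43 and 0.924.

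The promoters of these genes are known to hold a CCAAT box and a cell-cycle homology region (CHR), and those of replication genes a site for E2F. RefSeq promoters on GRCm38.p6, each from 250 bases before to 50 after the annotated start, 1 per gene, matched 48 of the 60 mitosis genes. The CHR letters TTTGAA were found on either strand in 34 of the 48 (70.8%) and CCAAT in 37 (77.1%), 29 held both and 6 held neither. Over all 27025 promoters of that length the shares were 18.1% for TTTGAA, 37.9% for CCAAT and 7.12% for both, and among the genes used here they were 11.7% and 39% for each alone. The E2F letters, TTCGCG or TTGGCG, stood in 19 of 38 promoters of replication genes, against 20.7% of the genes used and 10.9% of all promoters, and TTTGAA in 13.2% of the 38. Over the 587 matched genes that fell, 21.8% held TTTGAA, 49.2% CCAAT and 21.6% the E2F letters. Of the genes that rose 78.7% had a promoter in the tables, under the 80% needed here for a share to be read. TTGGCG can overlap the reverse complement of CCAAT, so the searches are not independent. A match is a description of the letters and not a bound site. The 3 mitosis genes with the largest falls among those that hold both motifs are printed below, followed by the 2 replication genes with the largest falls among those with E2F letters, each as 200 bases from 170 before to 30 after the start. Capitals mark CCAAT and TTTGAA on either strand in the first 3 sequences, and the E2F letters on either strand, overlapping matches included, in the last 2. In Cdca8 the last CCAAT (as ATTGG) shares a base with TTTGAA.
Kif11, chr19:37376212-37376411, plus strand: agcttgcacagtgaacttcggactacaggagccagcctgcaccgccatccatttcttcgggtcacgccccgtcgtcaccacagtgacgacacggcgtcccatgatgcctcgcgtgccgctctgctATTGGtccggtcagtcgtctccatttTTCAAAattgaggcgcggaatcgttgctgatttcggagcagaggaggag
Cdca8, chr4:124936888-124937087, minus strand: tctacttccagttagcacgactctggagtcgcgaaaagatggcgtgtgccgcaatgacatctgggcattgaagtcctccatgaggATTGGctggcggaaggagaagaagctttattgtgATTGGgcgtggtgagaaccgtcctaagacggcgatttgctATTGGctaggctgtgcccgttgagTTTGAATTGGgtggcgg
Kif4, chrX:100625895-100626094, plus strand: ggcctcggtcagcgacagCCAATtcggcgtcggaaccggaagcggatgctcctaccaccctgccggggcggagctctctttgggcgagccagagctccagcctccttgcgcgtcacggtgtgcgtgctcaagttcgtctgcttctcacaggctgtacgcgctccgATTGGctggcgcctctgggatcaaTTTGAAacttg
Mcm5, chr8:75109339-75109538, plus strand: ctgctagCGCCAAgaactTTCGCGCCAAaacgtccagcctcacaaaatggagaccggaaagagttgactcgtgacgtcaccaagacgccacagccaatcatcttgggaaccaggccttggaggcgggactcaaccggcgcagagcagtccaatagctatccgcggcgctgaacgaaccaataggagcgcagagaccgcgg
Mcm6, chr1:128359676-128359875, minus strand: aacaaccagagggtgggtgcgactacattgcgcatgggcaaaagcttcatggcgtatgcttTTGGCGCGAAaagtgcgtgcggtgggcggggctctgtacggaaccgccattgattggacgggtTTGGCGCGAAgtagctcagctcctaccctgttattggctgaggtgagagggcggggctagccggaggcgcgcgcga

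DNA replication genes also fell. Of 47 members used, 39 fell and 0 rose, with a median difference of -1.46. Gins2, a subunit of the replicative helicase, had 42.6 and 2.60, and Rrm2 (chromosome 12, 24708241 to 24714146, plus strand), which makes deoxynucleotides, had 32.5 and 2.09. Uhrf1, which guides DNA methylation to new strands, went from 14.3 to 1.22. Mcm5 of the helicase ring, Chaf1b of the factor that loads histones, and DNA ligase Lig1 had 7.31 and 0.855, 6.01 and 0.431 and 25.1 and 4.80. The sliding clamp Pcna, the most abundant member, stayed within 2-fold at 95.6 and 56.5. Of 23 replication-dependent histone genes, 14 fell and 0 rose, with a median difference of -1.68, led by Hist1h2bl at 64.9 and 2.71. These genes are near-identical copies, so the share of reads given to each is uncertain. Among 26 RNA-binding and chromatin genes known from fetal tissues, 10 fell and 0 rose (20 and 0 as deposited). Stmn1, a microtubule regulator of dividing cells, had 106 and 29.1, the chromatin proteins Hmgb2 and Hmgn2 had 36.7 and 11.7 and 161 and 63.1, and prothymosin (Ptma) stayed within 2-fold at 501 and 342.

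The genes that govern the choice between division and rest did not move as one. Of 27 members, 4 rose and 4 fell, and the median was -0.16 (0 higher and 15 lower as deposited). Cdk4, the kinase of early G1, fell from 73.8 to 31.8, the tumour suppressor Trp53 from 48.5 to 21.3 and the repressor E2f8 from 8.24 to 0.704. In contrast Myc, a growth-promoting transcription factor, rose from 21.9 to 72.3, the antiproliferative gene Btg2 from 60.0 to 141 and E2f1 from 1.95 to 5.66.

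Among PDGF receptors and ligands, 4 of 7 genes reached the minimum, and Pdgfra and Pdgfrl rose. Pdgfrl, a receptor-like protein without a kinase, had 2.70 and 10.5. The beta receptor Pdgfrb lay just under 2-fold at 6.82 and 14.5, and the ligand gene Pdgfa at 4.37 and 9.47. As deposited, 0 of the 4 were 2-fold higher.

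Elastic fibre genes rose more often than they fell, with 7 of 16 higher, 1 lower and a median difference of 0.74 (2 higher and 3 lower as deposited). Elastin (Eln, chromosome 5, 134702593 to 134747323, minus strand), the core of the fibre, had 61.0 and 813 scaled FPKM, a difference of 3.71. Its E18.5 value was above those of P7 and P28, 364 and 337. The latent TGF-beta binding proteins Ltbp2 and Ltbp4, which join the fibre, rose from 12.6 to 71.8 and from 22.2 to 75.6. Mfap4, a microfibril glycoprotein and the most abundant member, rose from 593 to 1421, and Loxl2, a crosslinking oxidase, from 18.6 to 39.7. Emilin2, a glycoprotein of the fibre surface, was the member that fell, at 10.4 and 2.42.

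Collagens split by type. Of 7 fibrillar collagens, 2 of the rarer chains rose, Col24a1 at 1.79 and 7.95 and Col27a1 at 4.76 and 12.5, and the median was 0.13 (0 higher and 1 lower of 6 as deposited). Of 11 other collagens, 5 rose and 0 fell, with a median of 0.88 (1 higher and 2 lower as deposited). The basement membrane chains Col4a1 and Col4a2 had 37.2 and 132 and 26.0 and 72.5, and Col15a1, which ties basement membrane to the fibrils below, had 1.71 and 14.2. Among collagen VI chains, which form beaded microfibrils, Col6a3 rose from 37.7 to 108, while Col6a1 and Col6a2 had 54.1 and 100.3 and 99.2 and 175, within 2-fold. Of 17 genes that process collagen, 2 rose (1 higher and 5 lower as deposited), and both cut the amino end of procollagen: Adamts14 at 2.32 and 19.5 and Adamts2 at 5.49 and 16.2. The collagen chaperone Serpinh1 was level at 57.5 and 60.5.

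Of 9 basement membrane genes for laminins, nidogens and agrin, 4 rose and 0 fell, with a median of 0.93 (0 higher and 1 lower of 8 as deposited, with a median of -0.17). Lamc1, the gamma chain of most laminins, had 96.2 and 247, Lamb2 had 5.61 and 17.5, Lama5 had 1.99 and 6.36 and Lama2 had 17.4 and 39. Nid1 and Nid2, which link laminin to collagen IV, stayed within 2-fold at 92.1 and 108 and 16.7 and 9.51. Of 9 integrins, the matrix receptors, Itgav rose from 11.3 to 34.8 and Itga9 from 36.8 to 78.5, and the others were within 2-fold (0 higher and 3 lower as deposited). Endothelial and pericyte markers, whose cells also make basement membrane, were higher at E18.5 too (given below), and their part in these values was not tested.

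Matricellular proteins, which sit in the matrix and modulate cells, had 8 of 16 members that rose and 0 that fell, with a median of 0.99 (3 higher and 3 lower as deposited). The spondins Spon1 and Spon2 had 0.846 and 12.1 and 4.35 and 25.7, and Igfbp7, which binds insulin-like growth factors weakly, had 18 and 108. Postn (periostin) rose from 29.4 to 103, Tgfbi from 187 to 541 and Mgp, an inhibitor of calcification, from 286 to 915. Sparc, a collagen-binding protein, was within 2-fold at 283 and 379.9. Their later courses differed, since Tgfbi and Postn were at 12.3 and 9.71 at P28 while Igfbp7 and Mgp were at 1041 and 2276.

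Matrix proteases and their inhibitors showed a median of 1.17, with 12 of 21 higher and 2 lower (4 and 4 as deposited). Inhibitors and enzymes rose side by side. The inhibitor Timp3, which blocks metalloproteinases, had 11.4 and 62.2. The secreted protease Htra1 rose from 13 to 66.2, Adamts1, which cuts versican, from 39.1 to 176, Mmp2 from 86.8 to 198 and the plasminogen activator Plat from 2.49 to 8.84. Among 17 proteoglycans, 6 rose and 3 fell (0 and 5 of 15 as deposited). Biglycan (Bgn) rose from 217 to 602, the cell-surface heparan sulfate proteoglycans Sdc4 and Gpc4 from 10.5 to 38.4 and from 8.03 to 20.8, and Podn from 1.34 to 7.24. Versican (Vcan), a large proteoglycan of young matrix, fell from 90.6 to 42.4, and Srgn, a proteoglycan of blood cell granules, from 82.1 to 11.3. Leukocyte markers fell beside Srgn (below), while at P7 Srgn was at 137 and the summed level of leukocyte markers at 53.6. The part of leukocytes in the Srgn values was not tested.

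**Figure D2:**
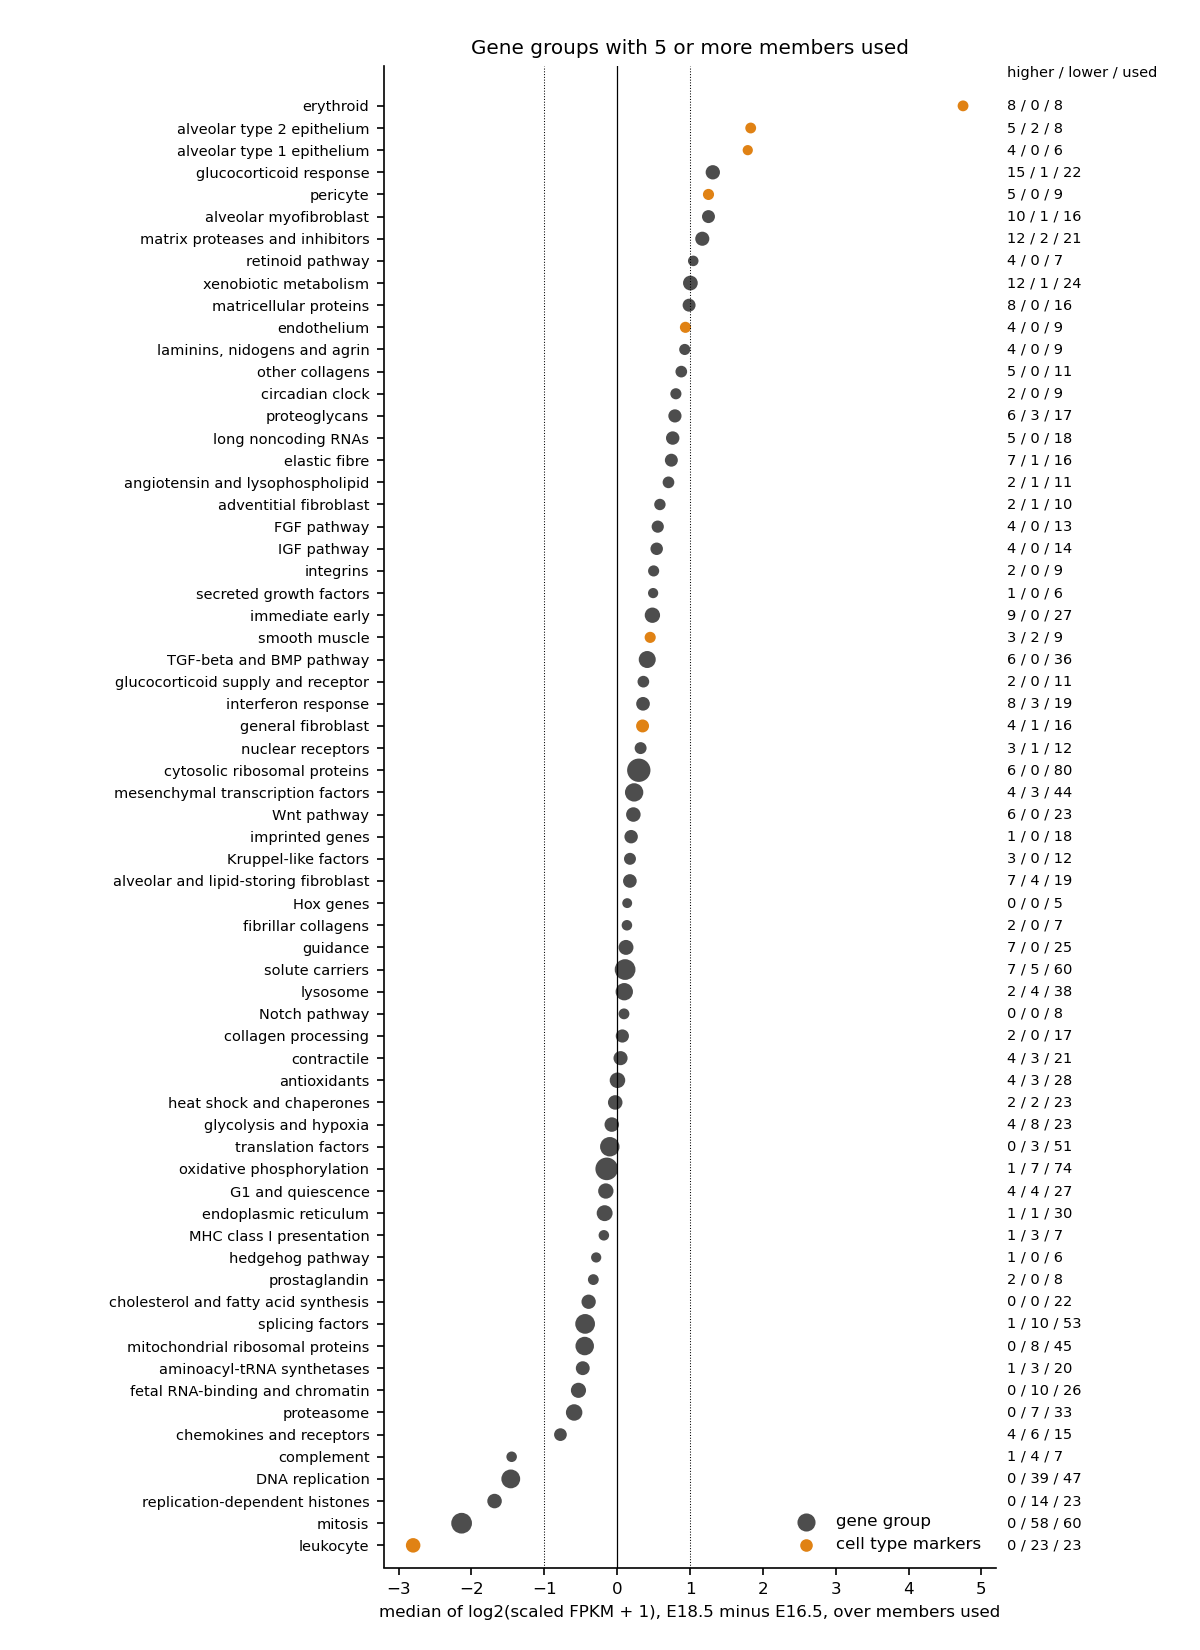
Median difference of log2(scaled FPKM + 1), E18.5 minus E16.5, for each gene group with 5 or more members used, with marker lists of other cell types in orange. Dot size grows with the number of members used, dotted lines mark 2-fold, and the numbers at the right count members that rose, that fell and that were used. Mitosis lies at -2.13 and leukocyte markers at -2.80, and erythroid markers lie at 4.75.

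Markers of the alveolar myofibroblast, the cell that deposits elastin, rose more often than they fell. All 16 were used, 10 rose and 1 fell, with a median difference of 1.25 (4 higher and 4 lower of 14 used as deposited). Enpp2 (chromosome 15, 54838901 to 54952892, minus strand), which encodes autotaxin, the enzyme that makes lysophosphatidic acid, had 10.2 and 405 scaled FPKM, a difference of 5.18. Among genes at 10 or more scaled FPKM, with predicted and small RNA genes passed over, larger differences were found for 4 globin genes alone. It stood high at E18.5 alone, with 13.8 and 13.1 at P7 and P28. Stc1 (chromosome 14, 69029238 to 69041804, plus strand), a secreted glycoprotein, had 2.54 and 50.7. Egfem1 had 18.1 and 127 and Pdlim3, an actinin-binding protein of the actin cytoskeleton, 17.1 and 101, and both held their level at P7, with 114 and 108. Hhip (chromosome 8, 79965851 to 80058006, minus strand), a decoy receptor for hedgehog ligands, rose from 24.2 to 90.3 and was at 5.87 at P7. Fgf18, a growth factor of these cells, stayed within 2-fold at 34.2 and 25.9.

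The contractile genes did not rise as a group. Of 21 members, 4 rose, 3 fell, and the median was 0.05 (1 higher and 7 lower as deposited). Desmin (Des), an intermediate filament, rose from 4.52 to 33.1, the actin-binding protein Tagln from 11.8 to 28.3, and the tropomyosins Tpm1 and Tpm4 from 194 to 408 and from 182 to 389. Smooth muscle actin (Acta2, chromosome 19, 34241090 to 34255590, minus strand) fell from 146 to 68.0 and Synpo2, which bundles actin, from 10.5 to 3.85. Gamma smooth muscle actin (Actg2) was just under 2-fold lower at 43.1 and 21.2. Thus desmin and Acta2, both used as muscle markers, moved in opposite directions in these samples. Acta2 was back at 156 at P7.

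Markers of alveolar and lipid-storing fibroblasts were divided, with 7 of 19 higher, 4 lower and a median of 0.17 (1 higher and 9 lower of 18 as deposited). Tcf21, a transcription factor of the lung mesenchyme, rose from 30.1 to 88.8, Limch1 from 5.22 to 23.8, the glycogen primer Gyg from 64.8 to 169.6 and the cytoskeletal linker Macf1 from 34.4 to 119. Fabp4, a fatty acid carrier, rose from 0.266 to 6.47, whereas Pparg, the nuclear receptor that drives lipid storage, fell from 6.75 to 0.835. Of 10 adventitial fibroblast markers, 2 rose, dermatopontin (Dpt) at 11.1 and 44.8 and gelsolin (Gsn) at 5.98 and 15.5, and complement C3 fell, at 15.9 and 4.51 (0 higher and 2 lower of 9 as deposited). All 3 adventitial genes reached their highest value at P28, at 220.3, 447 and 417.

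Retinoid genes had 4 of 7 members that rose and 0 that fell (2 and 1 as deposited). Aldh1a1 makes retinoic acid and Rdh10 the retinaldehyde before it, and they had 7.18 and 50.9 and 3.58 and 13.5. The retinoid-responsive gene Rarres2, which encodes chemerin, had 3.50 and 27.6. The receptors Rara and Rxra were level at 13.1 and 10.4 and 8.97 and 9.98.

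Ligands, receptors and feedback genes of the signalling pathways were taken in turn. In the hedgehog pathway 1 of 6 rose, the decoy Hhip (0 higher and 4 lower of 7 as deposited). The receptor and target Ptch1 had 52.8 and 33.2, the transducer Smo 24.2 and 17.9 and the effector Gli3 6.87 and 4.87, all lower but within 2-fold. In the Wnt pathway 6 of 23 rose and 0 fell (1 and 7 of 24 as deposited). These were the ligand Wnt5a at 12 and 26.4, its receptors Ror2 at 3.41 and 9.63 and Ryk at 10.6 and 28.8, the secreted inhibitor Wif1 at 5.18 and 14.6, the Dickkopf family member Dkk3 at 21.6 and 87.6 and the coreceptor family member Lrp4 at 8.45 and 29.97. Wnt5a, Ror2 and Ryk belong to the branch of Wnt signalling that does not use beta-catenin.

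In the FGF pathway 4 of 13 rose and 0 fell (1 and 3 as deposited). The ligand Fgf2 had 2.18 and 12.5, and the others were feedback inhibitors of receptor signalling: Spry2 at 5.23 and 15.3, Spry4 at 6.14 and 18.3 and Spred1 at 15.4 and 45.2. Dusp6, a phosphatase that is also a feedback gene of the pathway, moved the other way within 2-fold, at 9.05 and 5.61. In the TGF-beta and BMP pathway 6 of 36 rose and 0 fell (1 and 5 of 33 as deposited). The coreceptor Tgfbr3 (betaglycan) had 16.1 and 73.9, the ligand Bmp2 0.935 and 5.25, the ligand Gdf10 4.84 and 15.3, the receptor Acvr2a 7.81 and 17.5 and the SMAD repressor Skil 16.1 and 36.7. The 6th, the coreceptor Eng at 6.94 and 18, is also an endothelial marker. No Notch pathway gene moved by 2-fold among the 8 used (0 higher and 2 lower of 7 as deposited). The target Hes1 had 67.9 and 108 and the receptor Notch2 17.6 and 9.98.

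Of 14 genes of the insulin-like growth factor pathway, 4 rose and 0 fell (4 and 3 as deposited), and all 4 encode secreted proteins. Igfbp3, a binding protein, had 1.27 and 27.6. Igfbp7, the protease Htra1 and Stc1 are given above. The ligands Igf1 and Igf2 stayed within 2-fold at 114 and 152 and 87.0 and 147. Among 18 imprinted genes Meg3 alone rose, at 11.7 and 24.6, and 0 fell (0 higher and 8 lower as deposited). H19 had 269.6 and 468 and Plagl1, a transcription factor of the imprinted network, 87.6 and 134. After birth H19 was low, at 13.6 and 0.146 at P7 and P28, whereas Gnas, the most abundant imprinted member, had 578 and 391 in the fetus and 614 and 580 after birth.

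Of 11 genes for angiotensin and lysophospholipids, Enpp2 and angiotensinogen (Agt) rose and Lpar6, a receptor for lysophosphatidic acid, fell from 5.18 to 1.83. Agt, the precursor of angiotensin peptides, had 1.23 and 56.6, a difference of 4.69, and was at 33.4 and 0.719 at P7 and P28. Of 8 prostaglandin genes, 2 rose (2 higher and 5 lower as deposited): the transporter Slco2a1 at 3.73 and 39.9 and the synthase Ptges at 2.83 and 17.4. The degrading enzyme Hpgd lay just under 2-fold lower at 6.19 and 2.65 and was at 177 at P7. Among 25 genes of axon guidance, which also steer vessels and epithelium, 7 rose and 0 fell (1 and 8 of 27 as deposited). The netrin Ntn4 had 0.339 and 17.4, the semaphorin Sema3c 4.77 and 20.3, its receptors Nrp2 and Plxna2 2.93 and 9.51 and 10.5 and 36.2, and the ephrin receptor Epha3 15.7 and 39.9.

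Genes that answer to glucocorticoid rose more often than they fell. Of 22 used, 15 rose and 1 fell, with a median difference of 1.31 (8 and 1 of 21 as deposited). Klf9 (chromosome 19, 23141226 to 23168134, plus strand), a transcription factor induced directly by the receptor, had 3.22 and 64.1, a difference of 3.95. The metallothioneins Mt1 and Mt2, which bind zinc, had 8.60 and 105 and 2.12 and 25.7. Glutamine synthetase (Glul) rose from 19.9 to 98.1, the thioredoxin inhibitor Txnip from 15.7 to 69.1, the sulfotransferase Sult1a1 from 1.48 to 16.54 and Fkbp5, a cochaperone that restrains the receptor, from 7.48 to 18. Lcn2, an iron-carrying protein made in large amounts by neutrophils, fell from 28.8 to 2.62. At P7 Klf9, Mt1 and Fkbp5 were low again, at 6.24, 0.197 and 1.15, and at P28 they stood at 41.5, 16.9 and 6.30. Glul and Txnip, at 36.3 and 36.8 at P7, lay between their E16.5 and E18.5 values.

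The supply of the hormone and its receptor was also measured. Hsd11b1, which regenerates active glucocorticoid inside the cell, rose from 4.74 to 21.4. H6pd, which feeds it with cofactor, and the receptor gene Nr3c1 stayed just under 2-fold at 15.7 and 29.4 and 12.5 and 24.6. RefSeq promoters matched 20 of the 22 response genes, and 0 of the 20 held the full palindrome GAACANNNTGTTC. The same letters stood in 0 of 4823 matched genes used and in 13 of all 27025 promoters, so the window says nothing of the receptor, and no match was looked for elsewhere.

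Other groups move with handling as well as with hormones. Of 27 immediate early genes, which respond within minutes to growth factors and to tissue dissociation, 9 rose and 0 fell (0 and 4 as deposited). Zfp36, which destabilises mRNA, had 283 and 972, Junb 21.0 and 57.3, the inhibitor Nfkbia 8.12 and 31.5, Maff 27.0 and 74.4 and Gadd45b 6.41 and 22.2. Egr1 and Nr4a1 were within 2-fold at 334 and 362 and 52.4 and 63.8. The response list and the immediate early list share Dusp1, at 131 and 257, and the part of sample handling in either group was not tested. Of 23 heat shock and chaperone genes, 2 rose and 2 fell (1 and 12 of 24 as deposited). Both that rose were small heat shock proteins, Hspb1 at 35.1 and 200.2 and Hspb8 at 4.02 and 14.8. Those that fell were Hspd1 at 90.8 and 41.3 and Hsf1 at 12.2 and 5.34.

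Most of the other transcription factors stayed within 2-fold. Of 44 mesenchymal factors 4 rose and 3 fell (0 and 7 of 43 as deposited), among them Wwtr1 (TAZ), an effector of the Hippo pathway, at 8.22 and 24.5, Foxp2 at 2.65 and 8.66 and Sox5 at 2.91 and 7.17, against Mef2c, which fell, at 8.11 and 3.27. Among 12 Kruppel-like factors Klf10 and Klf7 rose with Klf9, at 6.07 and 23.7 and 15.9 and 45.6 (1 higher and 2 lower as deposited). Of 12 nuclear receptors 3 rose and 1 fell (2 and 3 as deposited). The orphan receptors Nr4a3, Nr4a2 and Rora rose, at 3.73 and 19.5, 10.8 and 37.4 and 3.55 and 16.1, and Pparg, given above, fell. Of 9 clock genes Rora and Bhlhe40, at 20.2 and 48.5, rose and 0 fell. No Hox gene moved by 2-fold among 5 used (0 higher and 2 lower as deposited), with Hoxa5 at 11.8 and 15.4.

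Metabolic groups went different ways. Of 23 genes of glycolysis and hypoxia, 4 rose and 8 fell (0 and 11 of 20 as deposited). The genes that fell were led by enzymes of the later steps of glycolysis, Pgam1 at 90.4 and 28.2, Pgk1 at 52.3 and 17.2, Pkm at 59.5 and 20.8, Gapdh at 311 and 112, and by Aldoa at 65.9 and 25.3. Ldha, which makes lactate, fell from 306 to 152. Several of these genes have processed copies in the genome, which makes their reads less certain. Bnip3, a hypoxia-induced mitophagy receptor, rose from 4.87 to 21.0, and Vegfa was within 2-fold at 6.42 and 9.25. Of 24 genes of xenobiotic metabolism, 12 rose and 1 fell, with a median of 1.01 (5 and 4 of 22 as deposited). The flavin monooxygenase Fmo2 (chromosome 1, 162874317 to 162898726, minus strand) had 11.1 and 249, the cytochrome Cyp2e1 0.259 and 27.5 and the carbonyl reductase Cbr2 1.18 and 14. Fmo2 stood at 16.4 at P7 and at 237 at P28.

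Among 28 antioxidant genes 4 rose and 3 fell (4 and 11 as deposited). Glutathione peroxidase Gpx3, which is secreted, rose from 14.3 to 59.9, glutathione reductase Gsr fell from 11.5 to 3.71 and glutaredoxin Glrx from 32.9 to 7.62. None of the 22 cholesterol and fatty acid synthesis genes moved by 2-fold, and their median was -0.39 (0 higher and 14 lower as deposited). Elovl6, which lengthens fatty acids, had 5.38 and 2.38. Of 60 solute carriers, 7 rose and 5 fell (1 and 20 of 54 as deposited), and the amino acid transporters Slc7a5 and Slc38a1 fell from 5.98 to 1.10 and from 5.71 to 0.941.

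Genes of the general machinery of the cell mostly stayed within 2-fold after scaling, with medians that differed between compartments. As deposited, 31 of 33 proteasome subunits, 45 of 54 splicing factors and 32 of 48 mitochondrial ribosomal proteins were at least 2-fold lower. So were 42 of 74 oxidative phosphorylation genes and 25 of 52 translation factors, while 1 splicing factor alone among these groups was 2-fold higher. Cytosolic ribosomal proteins had a median of 0.30, with 6 of 80 higher and 0 lower (1 and 16 as deposited, with a median of -0.68), whereas mitochondrial ribosomal proteins had -0.45, with 0 of 45 higher and 8 lower. Proteasome subunits had -0.59, with 0 of 33 higher and 7 lower, and splicing factors -0.44, with 1 of 53 higher and 10 lower. Hnrnpa1 and Srsf7, which choose splice sites, fell from 71.3 to 23.9 and from 33.2 to 11.6. The splicing factor that rose, Hnrnpd, was listed at 0 at E16.5 and at 13.4 at E18.5. Of 74 genes of oxidative phosphorylation 1 rose and 7 fell, with the cytochrome Cyc1 at 48.9 and 13.1 and the ATP synthase subunit Atp5b at 671 and 259. Of 51 translation factors 0 rose and 3 fell, and Eef1a1, the most abundant, was just under 2-fold higher at 946 and 1791. Rpl34 had 6.16 and 168, a value less certain than most because processed copies of ribosomal protein genes are common in the genome.

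Lars2 (chromosome 9, 123366927 to 123462666, plus strand), the leucyl-tRNA synthetase of mitochondria, stood apart from the 20 synthetase genes used. It had 321 and 4422 scaled FPKM and made up 0.205% of all FPKM at the earlier age and 2.56% at the later. Eprs, the next most abundant synthetase, had 31.6 and 22.4. Whether the reads counted for Lars2 came from its messenger RNA was not tested. Of the other synthetases 3 fell and 0 rose, with Yars2, also mitochondrial, at 9.79 and 1.63. As deposited, 16 of 21 synthetases were at least 2-fold lower and 1 higher. The predicted gene Gm20594 held 1.25% and 1.80% of the summed FPKM. Of 18 long noncoding RNAs 5 rose and 0 fell (0 and 3 of 17 as deposited), with Malat1, a nuclear RNA, at 363 and 1256 and Fendrr, which lies beside the lung mesenchyme factor Foxf1, at 9.71 and 26.1.

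**Figure D3:**
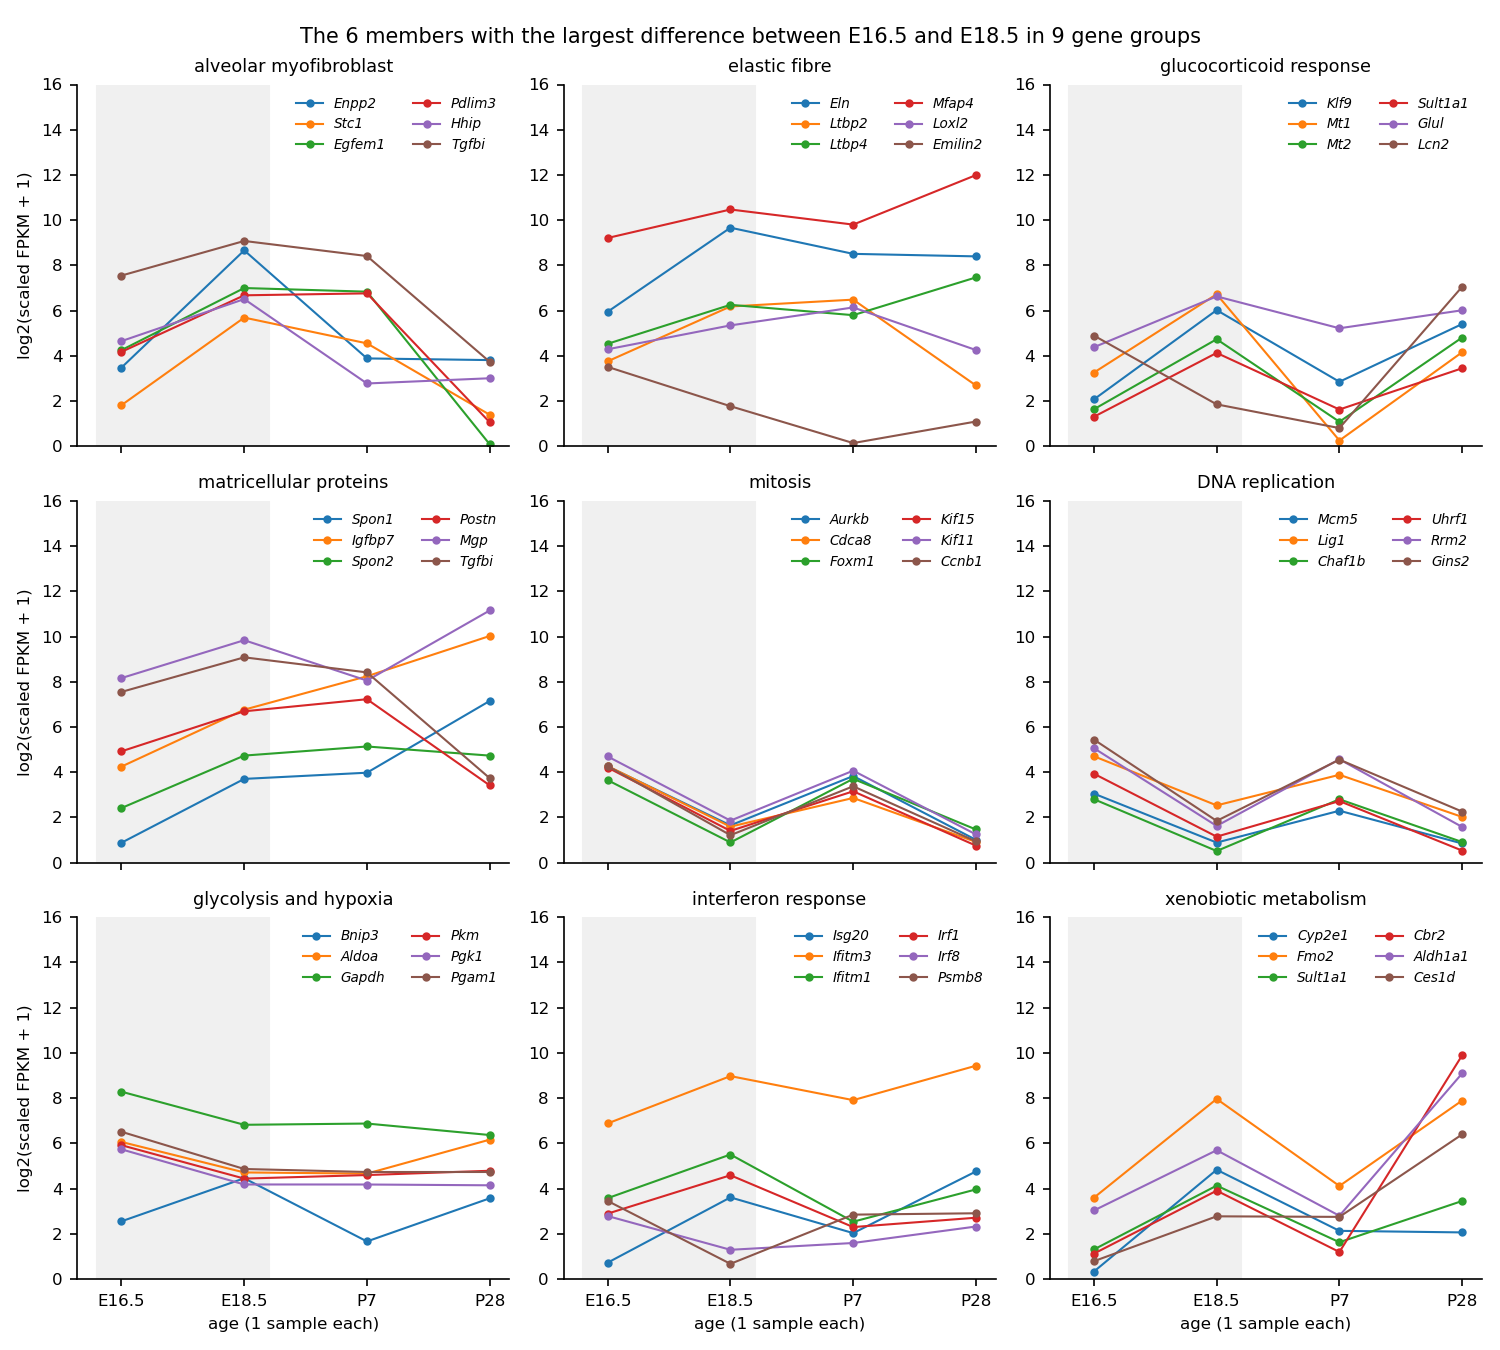
Log2(scaled FPKM + 1) at the 4 ages, 1 sample each, for the 6 members with the largest difference between E16.5 and E18.5 in 9 gene groups, with the fetal ages shaded. Enpp2 peaks at E18.5, the mitosis and DNA replication genes are high at E16.5 and P7 and low at E18.5 and P28, and the members of the glucocorticoid response other than Lcn2 are high at E18.5 and P28.

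Immune genes followed the leukocyte markers in one direction and departed from them in another. Of 7 complement genes, 4 fell and 1 rose, with a median of -1.45 (5 lower and 0 higher as deposited). With no minimum level the complement median equalled that of all genes, with a gap of 0. The receptors C3ar1 and C5ar1 and properdin (Cfp), which blood cells make, fell from 10.3 to 1.66, from 6.62 to 1.79 and from 7.97 to 1.85. Serping1, the inhibitor of the first complement component, rose from 22.4 to 54.9. Of 15 chemokine genes, 4 rose and 6 fell (2 and 11 as deposited). Those that fell included Ccr2 at 16.1 and 0.556 and Ccl3 at 31.3 and 7.98. Cxcl10, at 6.24 and 32.6, and Ccl27a, at 2.42 and 11.7, were among those that rose. Of 7 genes that present peptides on MHC class I, 1 rose and 3 fell (0 and 4 of 6 as deposited). H2-K1, H2-D1 and Psmb8 fell, at 15.1 and 3.80, 15.1 and 3.68 and 9.96 and 0.595. Tapbp rose from 2.43 to 6.07, and B2m was level at 255 and 225. Of 19 interferon response genes, 8 rose and 3 fell (2 and 6 as deposited). Ifitm3, which blocks virus entry, had 117 and 502, Ifitm1 10.9 and 44.5, the nuclease Isg20 0.655 and 11.2 and the factor Irf1 6.44 and 23.1, while Irf8, a factor of blood cells, fell from 5.90 to 1.45. Of 38 lysosome genes 2 rose and 4 fell (0 and 17 of 37 as deposited). Those that fell included Ctss at 146 and 10.3 and Cd68 at 24.1 and 2.74, both abundant in macrophages.

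Markers of other cell types differed between the samples, and their part in the values above was not tested. Of 30 leukocyte markers 23 were used and all 23 fell, with a median of -2.80. Their summed level went from 1913 to 226 scaled FPKM, or from 1.22% to 0.131% of the total. Lyz2 (chromosome 10, 117277331 to 117282321, minus strand), the lysozyme of macrophages, had 833 and 69.8, the neutrophil gene S100a8 179 and 28.1, the pan-leukocyte gene Coro1a 25.8 and 0.921, the mast cell protease Cpa3 27.3 and 1.41 and the T cell gene Cd3e 14.7 and 0.197. Gzma of cytotoxic cells had 19.1 at E16.5 and was listed at 0 at E18.5, as were 3 other markers of the list. Among the genes with the largest falls, Ifitm6, Ly86, Stfa3, Alox5ap, H2-Ab1, Plbd1 and Mmp8 are known chiefly from blood cells, and Arhgdib, a regulator of small GTPases in such cells, had 171 and 18.8. Mns1, a protein of cilia and the sperm tail, and Emb, a cell adhesion molecule, also fell far, at 19.1 and 0.871 and 20.2 and 1.32.

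Red cell genes went the other way. Of 14 erythroid markers 8 were used and all 8 rose, with a median of 4.75 and a summed level of 66.2 and 1316 scaled FPKM. The adult globins Hba-a1, Hbb-b1 and Hbb-bt had 1.96 and 454, 2.93 and 237 and 2.14 and 278, and Alas2, the haem synthesis enzyme of red cell precursors, 0.277 and 8.99. The globin copies are near-identical, so their separate values are uncertain. The E18.5 sample thus held more globin RNA and less leukocyte RNA than the E16.5 sample.

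Cells of vessels, epithelium and the lung surface gave smaller values. Of 22 endothelial markers 9 were used and 4 rose (0 of 7 as deposited), with a summed level of 160 and 256 scaled FPKM, most of it Ednrb at 106 and 148. The defining genes Pecam1 and Cdh5 had 3.004 and 11.5 and 4.36 and 9.97, against 93.0 and 200.2 at P7. Ednrb went the other way and was at 17.6 at P7, where the endothelial sum was 1294. Of 16 pericyte markers 9 were used and 5 rose (3 of 8 as deposited), with sums of 83.3 and 237. The largest part of both sums was Postn, given above with the matricellular proteins, at 29.4 and 103. The largest differences were those of the potassium channel subunits Kcnj8 and Abcc9, at 1.31 and 19.2 and 1.16 and 9.94. Vtn was listed at 0 at both ages. Of 15 alveolar type 2 markers 8 were used, 5 rose and 2 fell (2 and 3 of 6 as deposited). Surfactant protein C (Sftpc) had 19.5 and 171. The 2 that fell, Lyz2 and Cd74, are also on the leukocyte list. The summed level was 899.7 and 311, most of it Lyz2 (833) at E16.5 and Sftpc (171) at E18.5. Of 13 alveolar type 1 markers 6 were used and 4 rose (1 of 3 as deposited), with sums of 36.9 and 95.3. Ager was at 0.561 and 7.19. The club cell gene Scgb1a1 rose from 1.76 to 43.7, whereas the epithelial genes Epcam and Cdh1 were at 1.54 and 1.47 and 2.73 and 2.77. Among 12 mesothelial markers Krt19 alone was used, at 1.60 and 9.92, and the sum was 5.17 and 28.0. Of 13 cartilage and 16 neural and Schwann cell markers 0 reached the minimum at either age, and their sums were 3.39 and 4.57 and 6.48 and 6.88.

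**Figure D4:**
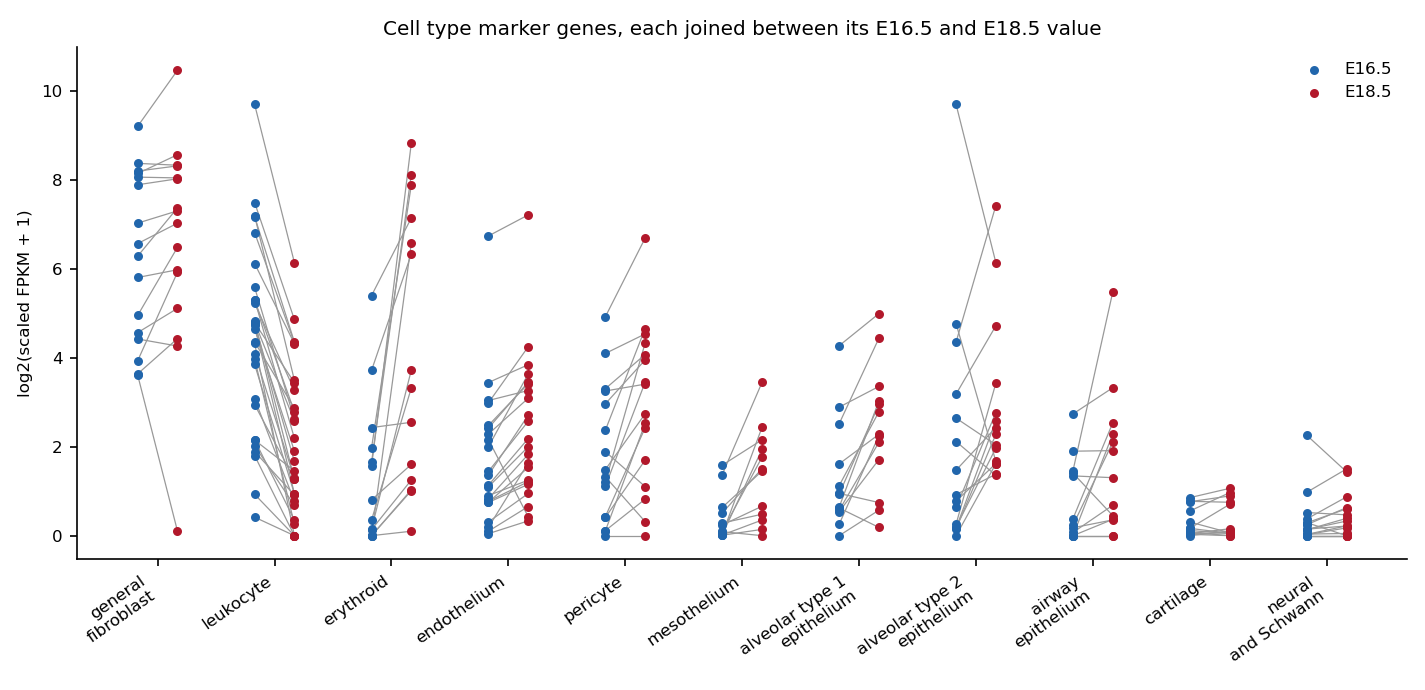
Log2(scaled FPKM + 1) of the markers of each cell type at E16.5 (blue) and E18.5 (red), with a line joining each gene, 1 sample per age. Leukocyte markers slope down, with a summed level of 1913 and 226 scaled FPKM, erythroid markers slope up, and cartilage markers stay near 0.

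With every gene of the marker lists of other cell types left out, smooth muscle excepted, 536 genes rose and 711 fell among 5967. Genes of blood cells outside the lists, such as Ly86 and Stfa3, stayed in. The counts therefore do not measure the part of other cells, which was not tested.

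The other genes with the largest rises among those at 10 or more scaled FPKM covered several functions. Ccdc3, a secreted protein first known from vessels and fat, had 3.50 and 119 and was at 42.8 and 1.25 at P7 and P28. Penk, the precursor of enkephalin peptides, had 8.08 and 111 and was at 10.3 and 6.24. Lmcd1, a LIM-domain regulator of transcription, had 1.43 and 30.4 and was at 18.9 and 0.516. Ceruloplasmin (Cp), a copper-carrying ferroxidase, had 1.09 and 19.2 and was at 10.3 and 87.4. The antiproliferative gene Btg3 had 0.00479 and 14.3 and was at 0.00502 and 0.0112, values so low in 3 samples that, like those of exactly 0, they may be estimates that failed. Gas7 was listed at 0 at E16.5, with 16.4 at E18.5. Of these 6 genes, Ccdc3, Penk and Lmcd1 had low values again at P28, as Enpp2, Stc1 and Agt had. Btg3 is not counted with them, because its P28 value may be an estimate that failed.

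A value of exactly 0 or close to it may also stand for an estimate that failed. Of the genes used, 21 were listed at 0 in the E16.5 column and 17 in the E18.5 column, and most were genes of small RNAs such as Mir29c and Snora68. All of them counted as changed, and without them 543 genes rose and 717 fell. Transcript length, which the rule did not use, differed between the groups. With small RNA genes left out, the median transcript length was 1312 bases over 5971 genes used, 1552 for genes that rose and 1037 for genes that fell, and the median GC content was 49.4%, 51.1% and 49.6%. In 5 equal bins of length the median difference went from -0.14 in the shortest to 0.14 in the longest. In the shortest bin 7.61% of genes rose and 14.8% fell, and in the longest 10.6% rose and 8.12% fell.

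The postnatal pair, P28 against P7, shares no sample with the fetal pair and was set beside it. It differs in sex-linked genes, which the fetal pair does not: Xist had 63.4 at P7 and 0.0495 at P28, and Ddx3y, Eif2s3y and Kdm5d were listed at 0 at P7 and had 4.23 to 8.66 at P28. Their difference and that of age cannot be told apart in this pair. Of 6374 genes used there, 932 were at least 2-fold higher at P28 (14.6%) and 654 lower (10.3%). Of the 564 genes that rose between E16.5 and E18.5, 146 were also higher at P28 than at P7 (25.9% of the 564 and 15.7% of the 932) and 72 were lower (12.8% and 11%). Of the 734 that fell, 144 were also lower at P28 (19.6% of the 734 and 22% of the 654) and 42 were higher (5.72% and 4.51%). Only 442 of the 564 and 450 of the 734 reached the minimum in the postnatal pair, so the others could not count and the shares are not on the base of the 6374. All 4 columns share 1 scaling, and no test of these overlaps was made.

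Gene groups took different courses in the pairs. Of 49 mitosis genes used after birth 48 were lower at P28 than at P7, with a median of -2.20, near the fetal -2.13. Of 22 glucocorticoid response genes 20 were higher at P28 and 1 lower, and of 33 xenobiotic genes 25 were higher. Markers of epithelium and mesothelium were higher at P28 too, and their part in these values was not tested. All 7 airway markers used were higher, with a summed level of 45.9 and 18483 scaled FPKM at P7 and P28, the latter mostly Scgb1a1, and all 9 mesothelial markers used were higher. The xenobiotic gene Cbr2 had 1.29 and 951. Alveolar myofibroblast markers turned from a fetal median of 1.25 to -2.23, with 0 of 16 higher at P28 and 11 lower. Medians of vessel cell markers also went from above 0 to below it, and their part was not tested. Pericyte markers had medians of 1.25 and -2.04, with 7 of 9 lower at P28 and 1, Abcc9, higher. Endothelial markers had 0.94 over 9 genes used and -1.53 over 22, with 18 of the 22 lower, so these medians rest on different members. Their summed level at P28, 443, was above the 256 of E18.5. That of the myofibroblast markers at P28, 332, was below the 557 of E16.5. Smooth muscle markers had medians of 0.45 and -2.33. The myofibroblast gene Egfem1 had 114 and 0.0642 at P7 and P28, and Pdlim3 108 and 1.09. Complement had -1.45 over 7 genes used in the fetal pair and 3.00 over 15 genes used after birth, so the medians rest on different members (the fetal one with no minimum is given above), and 13 of the 15 were higher at P28. Alveolar and lipid-storing fibroblast markers, which had a fetal median of 0.17, were at 2.48 after birth, with 20 of 23 higher. All 15 alveolar type 2 markers used were higher at P28, with Sftpc at 11.3 and 9406.

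**Figure D5:**
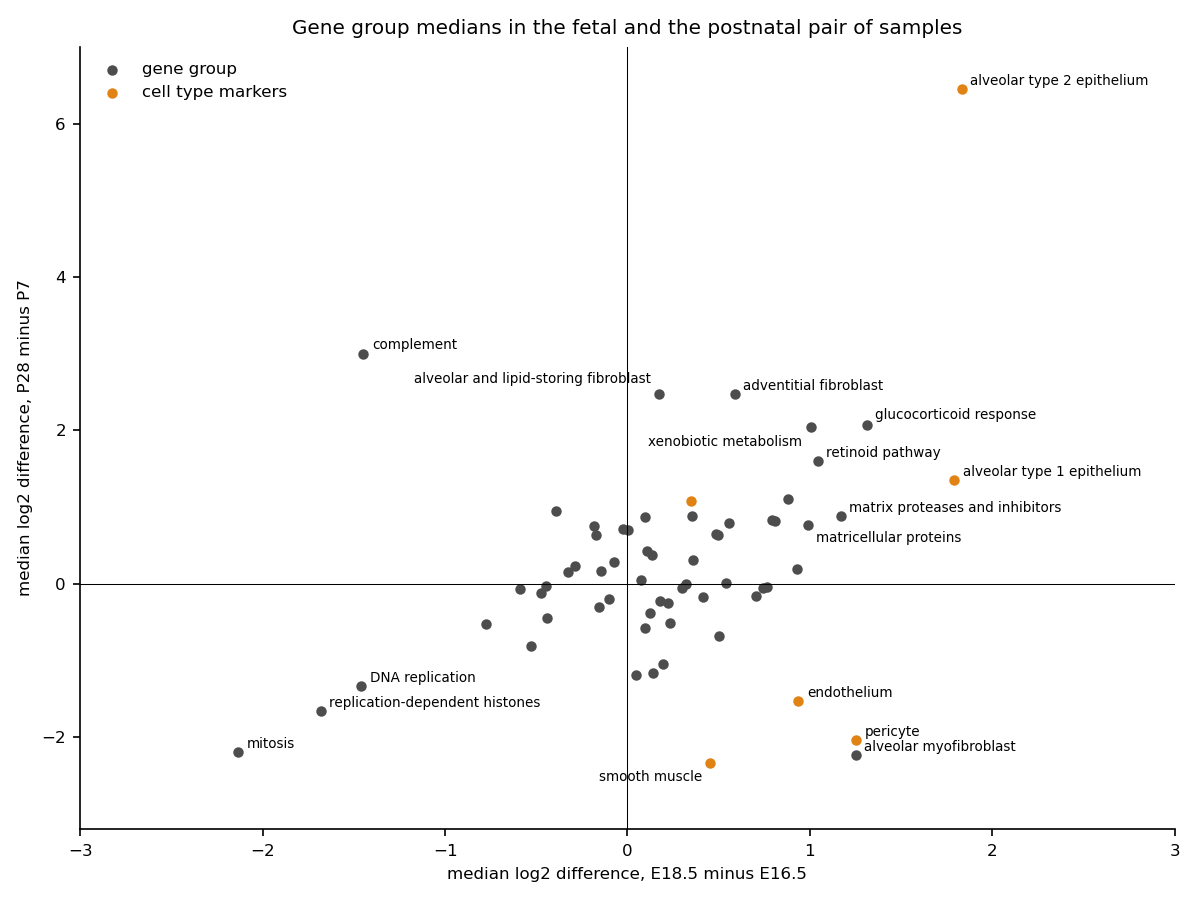
Median difference of each gene group between E18.5 and E16.5 (horizontal) and between P28 and P7 (vertical), both in log2(scaled FPKM + 1), for groups with 5 or more members used in both pairs. Mitosis is low on both axes, the glucocorticoid response is high on both, and the alveolar myofibroblast markers are at 1.25 and -2.23.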

How the data were processed

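The authors deposited a table of FPKM for 23931 entries in 4 columns, 1 per age. Per the labels' protocols, total RNA (QIAamp Circulating Nucleic Acid Kit) was made into Nextera XT libraries and sequenced as read pairs. The submitters' processing notes name TopHat2 2.0.9 and the builds GRCm38 and mm10, and the sources used here do not give the program behind the FPKM. FPKM holds no read totals, so depth was only estimated, as a ratio from values below 0.1 FPKM (990 genes). Entries sharing a symbol were summed (258 symbols). Each column was divided by its median ratio over 7930 genes at 1 FPKM or more in all 4 columns. Differences used a pseudocount of 1, a minimum of 5 and a 2-fold threshold, and understate changes of low genes. The code was tested on simulated data.

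Members and the 75 gene lists were chosen with earlier results of these data known, and lists share genes. Named genes are Pdgfra, the 25 largest differences each way among genes at 10 or more (predicted genes, small RNAs and ribosomal proteins passed over), 6 members per list by difference and 2 by level (3 for other cell types). Epcam, Cdh1, Xist, Gm20594, Mir29c, Snora68, Kif4, Mcm6 and the genes at the edges of the rule stand outside it. Some genes of the lists are counted but not reported here by name. Coordinates are from GENCODE M21 on GRCm38. Python 3.11.15, numpy 2.4.6 and pandas 2.3.3 were used. Alternatives covered scaling, pseudocount, minimum, threshold and gene classes left out.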

Additional observations from a re-analysis of the deposited data

How the results depend on the processing

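With 1 sample per age, nothing here measures the spread between animals. Rare transcripts may be limited by the E18.5 sample, the shallower one by the estimate above. No paired analysis was possible because each age has 1 sample and the labels give no replicate numbers. The main counts, 564 genes higher and 734 lower, were 139 and 2837 as deposited, 296 and 365 with a pseudocount of 5, 880 and 1176 with no minimum, 251 and 213 with a minimum of 20, 136 and 217 at 4-fold and 1185 and 1352 at 1.5-fold. Leaving out small RNA and predicted genes (510 and 698) or genes under 300 bases (541 and 718), chosen after seeing the data, moved them less.

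Group medians were compared as the median of the group minus that of all genes. As deposited, MHC class I presentation was at -0.87 (-0.93 when scaled on the fetal columns alone) and alveolar type 2 markers at 0.61. Erythroid markers stayed above 0 throughout, at 3.81 as deposited, 3.58 with upper-quartile scaling, 3.72 scaled to a total, 6.10 with a pseudocount of 0.1, 3.32 with one of 5, 2.18 with no minimum, 6.13 with a minimum of 20 and 3.59 without symbols of several entries. A pseudocount of 5 gave -1.26 for mitosis, -0.82 for DNA replication, -0.81 for replication-dependent histones, -0.76 for complement, -1.98 for leukocyte, 0.92 for alveolar type 1 and 0.97 for alveolar type 2 markers. With no minimum, complement was at 0, chemokines at -0.048, smooth muscle at -0.39, histones at -0.35, matricellular proteins at 0.20, proteases at 0.47, the retinoid pathway at 0.22 and alveolar type 1 markers at 1.17. A minimum of 20 gave 1.30 for alveolar and lipid-storing fibroblasts, 0.74 for guidance, 1.39 for Kruppel-like factors, -1.26 for glycolysis, 1.61 for xenobiotic metabolism, 1.28 for the interferon response and -1.10 for mitochondrial ribosomal proteins. Where a minimum or scaling differed, other genes were used, and the cause was not tested beyond that. Of 463 genes named by the rule, the 298 with a 2-fold difference kept its direction under these scalings and pseudocounts. Of the 165 within 2-fold, 83 had the other sign as deposited, 5 with upper-quartile scaling, 1 scaled to a total and 0 under the others, and 422 of the 463 moved by over 1.5-fold as deposited.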
